A study of Argiope bruennichi with 12 samples.

Results

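The genes described here are 197 of the 37459 listed genes of the wasp spider Argiope bruennichi. In each of them the normalised read count was higher in every pool of spiderlings from a warm winter than in any pool from a cold or moderate one. The members were chosen by these normalised read counts (CPM, the count of a gene scaled to a library total of 1000000). A gene was taken when its CPM averaged at least 2 over the 12 pools, when the lowest of the 4 warm pools lay above the highest of the 8 cold and moderate pools, and when the mean of the warm pools was at least 1.5 times the mean of those 8. The gap between warm and the other pools alone was found in 488 genes, of which 413 had a mean CPM of at least 2. All the criteria were met by 230 genes, of which the 200 with the largest ratio were kept and 3 that the rule leaves out by name were removed. The members make up 1.58% of the 12442 genes with a mean CPM of at least 2. Because warm against the other pools chose them, their warm levels are given below as a description without a test. The choice did not compare cold with moderate, but it used the values of both, since those 8 pools had to lie below the lowest warm pool. This limited wide differences between cold and moderate, so their comparison below is not independent of the choice.

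First instar spiderlings were kept inside their egg sacs for 3 months in 1 of 3 simulated winters, and 4 pools of 15 whole spiderlings were sequenced from each. The cold regime had 5 °C by day and -15 °C at night, the moderate regime 5 °C by day and -5 °C at night, and the warm regime 15 °C by day and -5 °C at night, so that warm and moderate shared the night and cold and moderate shared the day. All regimes used offspring of wild-collected females from 1 northern population, with ribosomal RNA removed before sequencing. Cold was run in another model of climate cabinet than moderate and warm, so regime and cabinet cannot be told apart, and the labels do not say whether the pools of a regime came from separate egg sacs, so p-values measure the spread between these pools only. Counts per pool summed to 13407805 to 16081111 in cold, 10800714 to 14110124 in moderate and 14062208 to 14705182 in warm. In whole animals, more cells of a type and more RNA per cell cannot be told apart.

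Spiderlings of this species hatch in autumn and pass the winter within a silk egg sac, where an ectotherm's body temperature follows that of the air. Messenger RNAs of protein-coding genes are cut to their final form by the spliceosome, whose core is a set of small nuclear RNAs (snRNAs) bound by proteins. Long non-coding RNAs (lncRNAs) are transcripts without a recognised protein product, and some act on genes close to them. The annotation used here gave the type and position of all 197 members but not the names of their products, so no function is stated for a protein-coding member and members are described by type, level and place.

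The members stood apart in 1 moderate pool as well as in the warm pools. Relative to the mean of the 8 cold and moderate pools, the median member was at 1.03, 1.08, 0.958 and 0.987 in cold replicates 1 to 4, at 0.898, 0.687, 0.898 and 1.39 in moderate replicates 1 to 4, and at 1.99, 1.91, 1.86 and 1.85 in warm replicates 1 to 4. Moderate replicate 4 was therefore above, and moderate replicate 2 below, every other pool of the 8, while the 4 warm pools lay close together. Over all genes with a mean CPM of at least 2 the same medians ran from 0.908, in moderate replicate 2, to 1.02. Moderate replicate 4 was the highest of the 8 in 134 members (68.0%, against 19.9% of all genes), and moderate replicate 2 was the lowest in 105 (53.3%, against 36.8%). The share of a library's counts that the members held was 0.480% to 0.558% in cold, 0.418% to 0.759% in moderate and 1.01% to 1.04% in warm. The weight of moderate replicate 4 was not confined to the members. In warm against moderate, edgeR called 573 of 14057 genes with this pool. Without it 4419 of 14181 were called, 2367 of them lower in warm. Moderate replicate 4, like every cold and moderate pool, entered the choice of members, and the comparison of cold with moderate is given below with and without it.

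**Figure D1:**
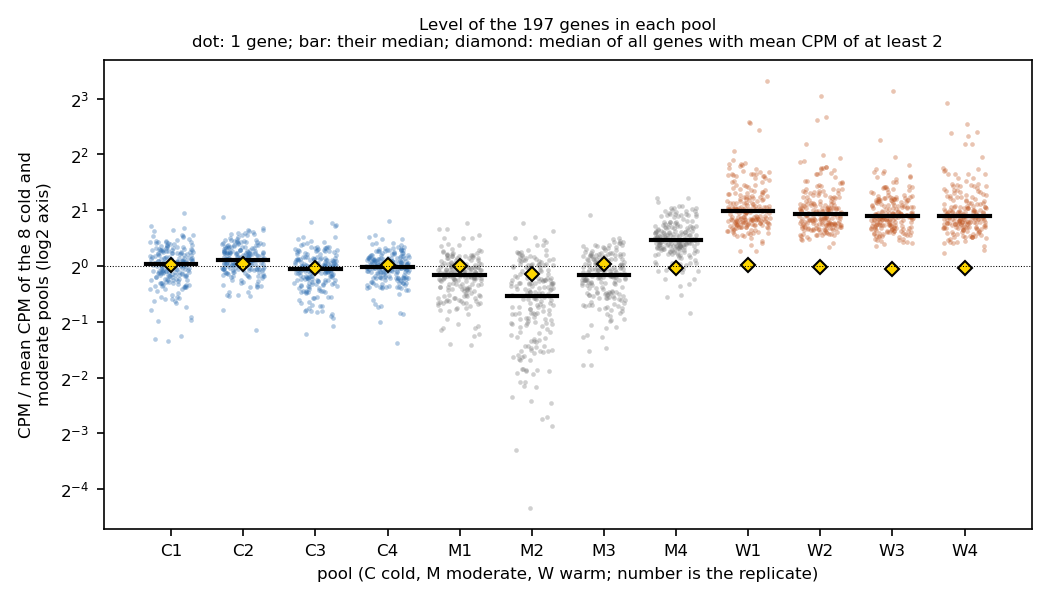
Level of each of the 197 genes in each pool, as CPM divided by the mean CPM of the 8 cold and moderate pools on a log2 axis. Dots are genes, bars the median of the 197 and diamonds the median of all genes with a mean CPM of at least 2, and 1 gene without counts in moderate replicate 2 has no dot there. The medians of the 197 were 1.85 to 1.99 in the warm pools, 1.39 in moderate replicate 4 and 0.687 in moderate replicate 2.

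Most members differed by less than 2-fold. The ratio of the warm mean to the mean of the other 8 pools ran from 1.58 to 5.90 with a median of 1.89, and it was at least 2 in 83 members and at least 3 in 16. The gap between groups was narrower, since the lowest warm pool was 1.00 to 2.02 times the highest other pool with a median of 1.12, was under 1.1 times in 76 members and at least 1.5 times in 8. Mean levels ran from 2.07 to 1145 CPM with a median of 9.24 CPM, and 54 members averaged under 5 CPM. CPM takes no account of transcript length, so a higher CPM of 1 gene than of another is no measure of more transcripts. Replicates were about as even in warm (median coefficient of variation 0.128) as over all genes (0.116), less even in cold (0.170 against 0.113) and least even in moderate (0.398 against 0.221, and 0.274 against 0.177 over replicates 1 to 3). The rule puts every warm pool above the others, so a wide spread in warm was limited by the choice. All genes were not matched to the members for level, and their median was 30.5 CPM.

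Of the 12 members with the largest ratio, 10 were protein-coding. LOC129967125 (chromosome 4, 114887001 to 114901449) had the largest, 5.90. Its levels were 11.3, 18.2, 21.5 and 11.2 CPM in cold, 8.36, 4.54, 17.4 and 6.96 CPM in moderate and 43.3, 76.4, 109 and 64.5 CPM in warm, in order of replicate number. Each warm pool was at least 2.02 times the highest of the others, the widest gap in the set, and moderate replicate 4 was among the low pools, at 6.96 CPM. LOC129967415 (chromosome 1, 33183900 to 33212708) followed with a ratio of 5.64, and its levels were 9.33, 8.23, 9.99 and 8.15 CPM in cold, 3.90, 8.98, 4.58 and 7.04 CPM in moderate and 40.6, 62.4, 10.1 and 56.8 CPM in warm. Its warm mean rested on 3 pools, since warm replicate 3 was only 1.01 times the highest cold pool. LOC129964232 (chromosome 3, 11685216 to 11735054) stood at 2.49, 5.04, 5.30 and 5.95 CPM in cold, 5.39, 1.67, 3.31 and 9.80 CPM in moderate and 15.6, 17.6, 23.3 and 25.6 CPM in warm. Here moderate replicate 4, at 9.80 CPM, was the highest of the 8, and the lowest warm pool was 1.59 times as high. LOC129975617 (chromosome 7, 81333322 to 81414603) had levels of 5.35, 10.4, 6.64 and 12.3 CPM in cold, 8.01, 13.2, 6.24 and 12.1 CPM in moderate and 29.1, 30.7, 23.1 and 36.2 CPM in warm. The cold and moderate pools overlapped throughout, and the lowest warm pool was 1.75 times the highest of them.

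The other 6 protein-coding genes of these 12 had ratios of 4.17, 3.42, 3.27, 3.25, 3.19 and 3.17 for LOC129965501, LOC129965539, LOC129968967, LOC129989362, LOC129957161 and LOC129968809. LOC129957161 (chromosome 11, 26621942 to 26638006) was measured at 8.77, 7.71, 6.04 and 5.58 CPM in cold, 3.76, 2.96, 3.53 and 9.31 CPM in moderate and 16.3, 17.1, 15.5 and 27.1 CPM in warm. Its warm pools were even except for replicate 4, and moderate replicate 4 was apart from the other 3 moderate pools. LOC129965501 was measured from few counts, at 0.808, 1.56, 0.597 and 0.514 CPM in cold, 0.992, 1.76, 0.301 and 1.70 CPM in moderate and 6.17, 6.54, 2.33 and 2.11 CPM in warm. Its lowest warm pool, replicate 4, was 1.20 times the highest other pool, so the ratio of its means was set by the higher warm pools. LOC129968967 stood at 6.03, 5.93, 10.1 and 3.75 CPM in cold, 10.6, 1.67, 3.16 and 8.02 CPM in moderate and 20.0, 12.6, 19.9 and 28.0 CPM in warm, with a lowest warm pool 1.19 times the highest other. LOC129968809 was measured at 2.55, 2.45, 2.69 and 2.13 CPM in cold, 0.850, 0.370, 1.05 and 4.21 CPM in moderate and 6.79, 6.40, 6.22 and 6.39 CPM in warm. It was even within cold and within warm, while moderate replicate 4 was above every cold pool and the other 3 moderate pools were below every cold pool.

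**Figure D2:**
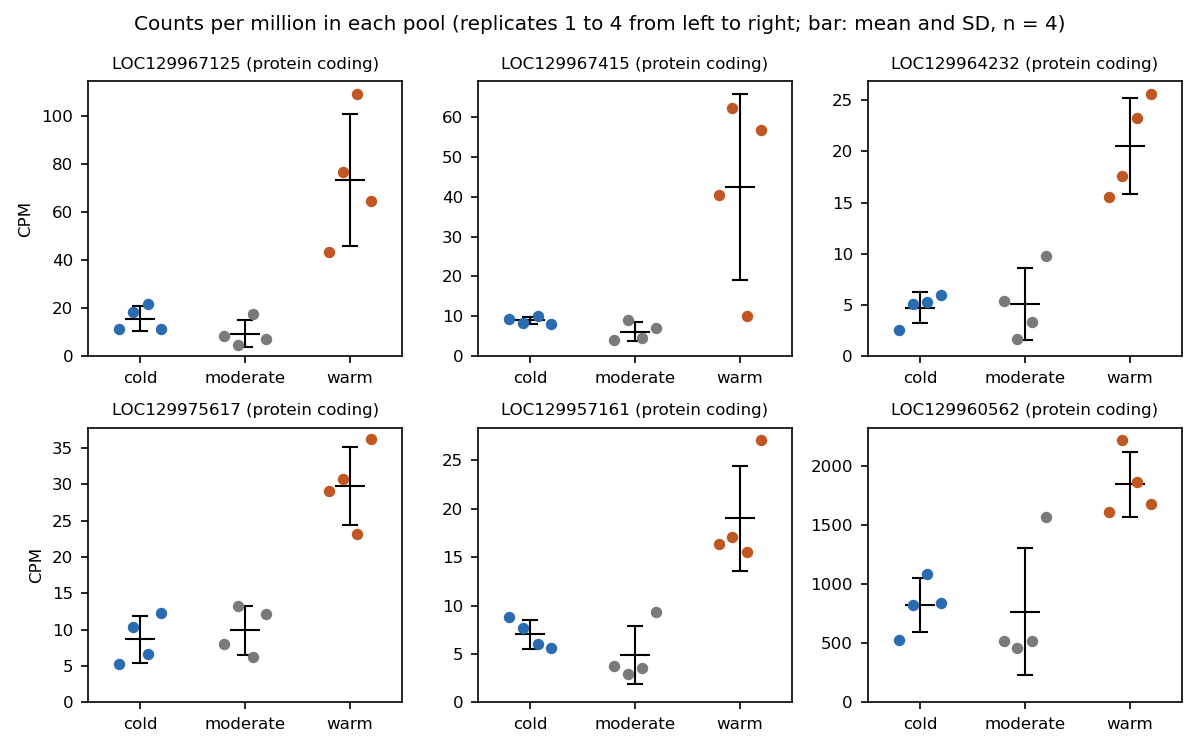
CPM of 6 protein-coding members in each pool, with replicates 1 to 4 of each regime from left to right, and bars for the mean and SD of 4 pools. In each panel the 4 warm pools lie above the 8 others, by 2.02 times for LOC129967125 and by 1.01 times for LOC129967415, and moderate replicate 4 of LOC129960562 lies at 1571 CPM beside 461 to 518 CPM in the other moderate pools.

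The 8 members with the highest warm level held 4 protein-coding genes, 1 lncRNA and 3 snRNAs. LOC129960562 (chromosome 2, 71929725 to 71939041) had the highest CPM of them, with 529, 828, 1088 and 841 CPM in cold, 517, 461, 518 and 1571 CPM in moderate and 1614, 2224, 1868 and 1682 CPM in warm. Moderate replicate 4 nearly reached the lowest warm pool, and without it the cold mean was 1.65 times that of the other 3 moderate pools. LOC129956464 (chromosome 11, 26563700 to 26608758) was at 203, 252, 226 and 245 CPM in cold, 132, 206, 204 and 219 CPM in moderate and 255, 388, 477 and 528 CPM in warm. Its warm replicate 1 was within 1.01 times of the highest cold pool, while the other 3 warm pools were well above. LOC129969260 (chromosome 5, 14318251 to 14669836) had 105, 107, 99.9 and 92.2 CPM in cold, 97.7, 95.8, 104 and 217 CPM in moderate and 237, 271, 259 and 224 CPM in warm, with moderate replicate 4 again above the rest of its regime. LOC129987773 averaged 140.2 ± 52.0 CPM in cold, 113 ± 52.1 CPM in moderate and 257 ± 36.5 CPM in warm (SD, n = 4 pools each). The lncRNA LOC129983752 averaged 278 ± 64.2 CPM, 261 ± 99.6 CPM and 455 ± 72.6 CPM in the same order. Its lowest warm pool was 1.00 times its highest other pool, moderate replicate 4.

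Among the members, snRNA and lncRNA genes had larger shares than among all genes at this level. The members comprised 173 protein-coding genes (87.8%, against 96.6% of all genes with a mean CPM of at least 2), 17 lncRNA genes (8.63%, against 3.19%) and 7 snRNA genes (3.55%, against 0.137%). The 118 genes that met the same rule with warm lowest held no snRNA gene and 3 lncRNA genes, and the 61 that met it with cold highest held no snRNA gene and 1 lncRNA gene. At 0.137% and 3.19% of all genes, few or no genes of these types fall in sets of that size, so these counts show no difference. No small nucleolar RNA gene was a member, of 14 at this level, which is too few to tell at a share of 1.58% over all genes. These counts describe the set and were not tested, and that the snRNA genes would be described as a group was decided after their values had been seen.

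The snRNA pair LOC129957802 and LOC129957803 had the largest ratios of the 7, 5.44 and 3.47. They are the only 2 genes annotated as snRNA with a length of 151 bases, and lie on chromosome 11 at 63604760 to 63604910 and at 63223200 to 63223350. LOC129957802 was counted 46, 39, 53 and 49 times in cold, 37, 24, 34 and 70 times in moderate and 473, 177, 137 and 245 times in warm, which is 2.86, 2.89, 3.95 and 3.60 CPM in cold, 2.62, 2.22, 2.56 and 5.67 CPM in moderate and 32.8, 12.6, 9.68 and 16.7 CPM in warm. LOC129957803 was counted 81, 23, 51 and 44 times in cold, 45, 41, 64 and 56 times in moderate and 321, 168, 111 and 150 times in warm, which is 5.04, 1.71, 3.80 and 3.23 CPM in cold, 3.19, 3.80, 4.81 and 4.53 CPM in moderate and 22.2, 11.9, 7.84 and 10.2 CPM in warm. Both were highest in warm replicate 1 and lowest among the warm pools in replicate 3. Whether reads from a near-identical copy were shared between them is uncertain, because the handling of reads that match several places is not given in the sources used here.

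The other 5 snRNA members had ratios of 1.70 to 1.95. LOC129964408 (162 bases, chromosome 3) was at 423, 422, 527 and 635 CPM in cold, 519.9, 584, 517 and 722 CPM in moderate and 970.4, 818, 1024 and 879 CPM in warm. LOC129959564 (161 bases, chromosome X1) was at 231, 227, 246 and 344 CPM in cold, 301, 336, 338 and 270.2 CPM in moderate and 567, 452, 569 and 616 CPM in warm, and LOC129959582 (161 bases, chromosome X1) at 119, 157, 134 and 171 CPM in cold, 154, 190.0, 184 and 188 CPM in moderate and 329, 216, 373 and 343 CPM in warm. In both X1 genes the moderate mean lay above the cold mean and far below the warm mean, and in LOC129959564 moderate replicate 4 was the lowest of its regime. LOC129957830 (162 bases, chromosome 11) averaged 108 ± 12.1 CPM in cold, 127 ± 33.7 CPM in moderate and 203 ± 19.1 CPM in warm. LOC129957983 (129 bases, chromosome 11) averaged 22.9 ± 2.43 CPM, 24.7 ± 5.42 CPM and 44.9 ± 7.26 CPM (SD, n = 4 pools each). Moderate replicate 4 was nearer to the warm level in LOC129957830, where it covered 0.718 of the way from the mean of the other 7 pools to the warm mean, than in LOC129957983, where it covered 0.307.

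**Figure D3:**
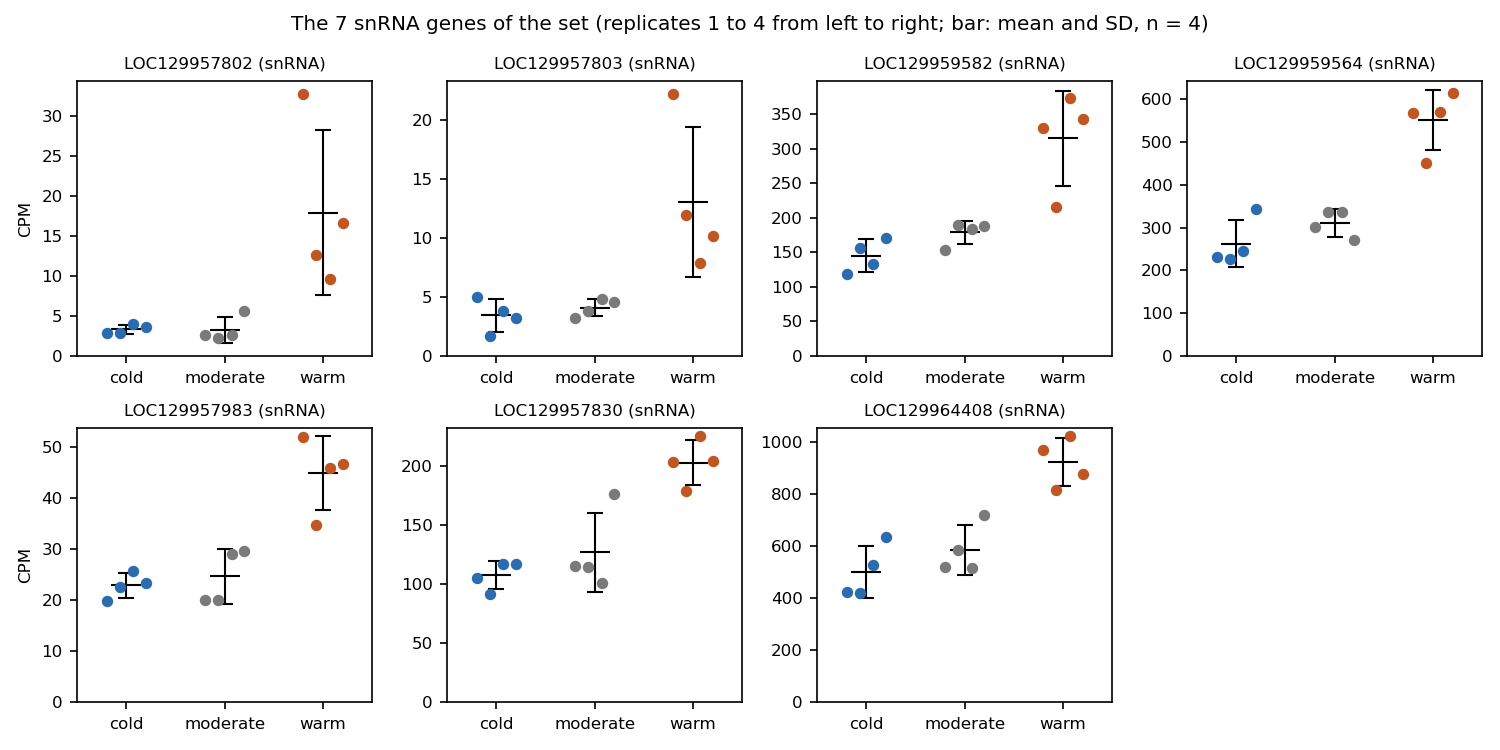
CPM of the 7 snRNA members in each pool, with replicates 1 to 4 of each regime from left to right, and bars for the mean and SD of 4 pools. The warm pools lie above all others in each panel, and warm replicate 1 is highest for LOC129957802 (32.8 CPM) and LOC129957803 (22.2 CPM).

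Of the 16 snRNA genes with a mean CPM of at least 2, a count that leaves out 1 gene the rule excludes by name, 9 were no members. The warm mean was above the mean of the other 8 pools in 8 of these 9, where 49.1% of all genes at this level had a higher warm mean. In each of the 9 a cold or moderate pool was above the lowest warm pool. LOC129957752 and LOC129973114 had ratios of 2.66 and 2.29, but their lowest warm pools were 0.484 and 0.662 times the highest other pool. LOC129973103, with a mean of 4679 CPM, had a ratio of 1.18. The 1 with a lower warm mean, LOC129962435, had a ratio of 0.926. In the snRNA members moderate replicate 4 lay a median of 0.188 of the way from the mean of the other 7 pools to the warm mean, against 0.494 in protein-coding and 0.446 in lncRNA members. Their cold level was a median of 0.928 times that of moderate replicates 1 to 3, against 1.25 times in protein-coding and 1.15 times in lncRNA members, and neither difference was tested.

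The 17 lncRNA members had ratios of 1.67 to 2.58, and the largest was that of LOC129965473, at 1.06, 2.74, 2.69 and 1.102 CPM in cold, 1.77, 0.648, 2.18 and 3.81 CPM in moderate and 6.10, 4.69, 5.37 and 4.49 CPM in warm. It lies on chromosome 4, 71 bases from the protein-coding member LOC129966357, which was at 1.87, 2.45, 2.24 and 1.62 CPM in cold, 1.35, 1.20, 1.80 and 3.89 CPM in moderate and 6.44, 4.98, 6.71 and 4.42 CPM in warm. The lncRNA genes LOC129963763 and LOC129963764 lie 548 bases apart on chromosome 3. LOC129963763 was measured at 7.15, 7.27, 8.58 and 5.66 CPM in cold and 4.39, 9.07, 2.78 and 9.15 CPM in moderate and at 10.0 to 16.3 CPM in warm, and LOC129963764 at 4.04, 6.01, 5.07 and 4.04 CPM in cold, 2.91, 7.41, 1.73 and 7.04 CPM in moderate and 8.24, 10.2, 11.3 and 12.0 CPM in warm. In both, moderate replicate 2 was as high as moderate replicate 4 and replicates 1 and 3 were low, whereas moderate replicate 2 was the lowest of the 8 pools in 105 of all members. LOC129963764 overlaps the protein-coding gene LOC129963762, which is no member, and counts of overlapping genes are uncertain where the strand setting of the counting is not given in the sources used here. LOC129960813, on chromosome X2, had a ratio of 2.19 with warm replicate 2 at 14.6 CPM beside 5.61, 5.58 and 6.19 CPM in the other warm pools. These pairs and LOC129960813 were chosen after their values had been seen.

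Some members were neighbours in the genome. Within 100 kb of another member lay 19 of the 197 genes (9.64%), in 11 pairs. The same share was 1.69% of the 118 genes lowest only in warm and 6.56% of the 61 highest only in cold. Those sets are smaller, and the share in other sets of 197 genes was not worked out. None of the paired members overlapped. A run of 3 protein-coding genes lay on chromosome 10 between 114454042 and 114573133. LOC129988478 was at 1.87, 5.41, 7.68 and 3.53 CPM in cold, 4.04, 2.22, 5.94 and 6.07 CPM in moderate and 13.7, 9.81, 17.9 and 13.3 CPM in warm. LOC129988775 was at 5.66, 17.4, 14.4 and 12.8 CPM in cold, 8.43, 5.37, 18.0 and 25.3 CPM in moderate and 36.6, 33.1, 34.8 and 36.2 CPM in warm, and LOC129989183 at 19.4, 51.0, 52.5 and 45.0 CPM in cold, 39.0, 56.5, 63.4 and 69.5 CPM in moderate and 82.6, 91.0, 88.3 and 111 CPM in warm. In all of them cold replicate 1 was well below the other cold pools. Over the 8 cold and moderate pools, in each of which all genes share a library and its depth, their log2 levels gave Pearson correlations of 0.870, 0.669 and 0.664, and the lncRNA pair on chromosome 3 gave 0.956. Without moderate replicate 4 these were 0.883, 0.627, 0.578 and 0.950. The median was 0.664 over the 11 neighbouring pairs and 0.430 over all 19306 pairs of members, and 0.553 and 0.255 without moderate replicate 4. The neighbouring pairs included correlations down to -0.34 with that pool and -0.42 without it. Another annotated gene overlapped 16 members (8.12%, against 10.4% of all genes).

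The members were spread over all 13 chromosomes but not evenly. Chromosome 11 held 20 of them (10.2%, against 4.77% of all genes with a mean CPM of at least 2), chromosome 4 held 26 (13.2%, against 8.48%) and chromosome 10 also 26 (13.2%, against 9.11%). Fewer lay on chromosome 2, with 6 (3.05%, against 7.51%), and on chromosome 8, with 5 (2.54%, against 6.95%). The sex chromosomes X1 and X2, of which spider males carry fewer copies than females, held 29 (14.7%, against 13.6%). The span of the members' genes, introns included, had a median of 23.2 kb against 23.6 kb over all genes. These shares are descriptions of the set.

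**Figure D4:**
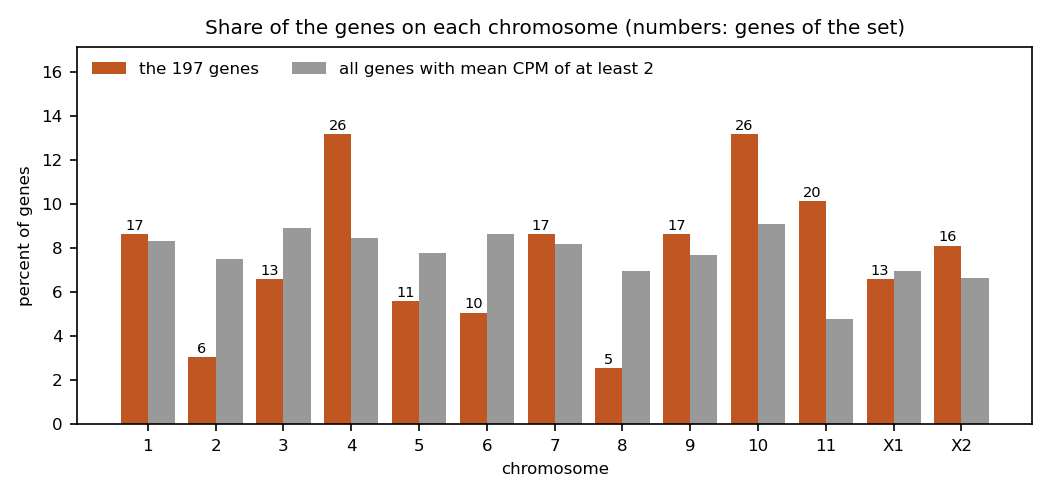
Percent of the 197 genes and of all genes with a mean CPM of at least 2 that lie on each chromosome, with the number of the 197 above each bar. Chromosome 11 shows the widest difference upward, with 10.2% of the set against 4.77% of all genes.

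Between cold and moderate, which differ at night, no member passed the test when all pools were used. Of the 197 members, 0 were called at an adjusted p under 0.05 by edgeR's quasi-likelihood test, where 2 of 14057 genes tested (0.0142%) were called. At that share, 0 of 197 members shows no difference from all genes. At an unadjusted p under 0.05, 4 members were higher and 9 lower in cold, together 6.60% of the members against 12% of all genes (5.3% higher and 6.69% lower). The rule kept every cold and moderate pool below the lowest warm pool, so large differences between cold and moderate were limited by the choice. DESeq2 called 0 members higher and 2 lower in cold (0.612% and 0.726% of all genes), and limma voom with sample weights called 12 higher and 2 lower (2.65% and 3.07%). The median log2 fold change of the members was 0.02, against -0.01 over all genes tested, and single members ran from -1.17 to 1.00. The CPM of the 4 cold pools lay wholly above that of the 4 moderate pools in 1 member (3.97% of genes tested) and wholly below in 4 (1.71%).

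The 5 members with the smallest p had log2 fold changes on both sides of 0. LOC129967496 (chromosome 1) was at 1.49, 1.63, 1.34 and 1.47 CPM in cold and 3.33, 3.06, 2.18 and 4.37 CPM in moderate, so every cold pool was below every moderate pool. Its log2 fold change was -1.17 (SE 0.28) with an adjusted p of 0.188 by edgeR, 0.0267 by DESeq2 and 0.0405 by limma voom. In warm it was at 8.80, 5.05, 5.37 and 4.69 CPM, so the 3 regimes were in the order cold, moderate, warm without overlap. LOC129960843 (chromosome X2) was at 12.5, 16.8, 14.7 and 15.3 CPM in cold and 17.9, 19.0, 20.2 and 23.5 CPM in moderate. It gave -0.49 (SE 0.14), with an adjusted p of 0.237 by edgeR and 0.0436 by DESeq2. LOC129961029 (chromosome X2) was at 4.85, 4.23, 3.36 and 3.89 CPM in cold and 6.73, 7.31, 4.43 and 7.37 CPM in moderate, and gave -0.71 (SE 0.21) with an adjusted p of 0.247. LOC129957168 (chromosome 11) gave -0.57 (SE 0.19) with an adjusted p of 0.302, from 4.35, 5.64, 3.36 and 4.70 CPM in cold and 5.67, 5.93, 6.24 and 8.02 CPM in moderate. As for LOC129967496, the cold pools of LOC129960843 and LOC129957168 were all below the moderate pools, while those of LOC129961029 overlapped them. LOC129989148 (chromosome 10) went the other way, at 11.0, 9.94, 11.5 and 9.77 CPM in cold and 5.32, 2.13, 5.94 and 9.96 CPM in moderate. Its log2 fold change was 0.82 (SE 0.30) with an adjusted p of 0.320 by edgeR and 0.0120 by limma voom, and the cold pools were even while the moderate pools spread from 2.13 to 9.96 CPM. Without moderate replicate 4 it was called by edgeR, at 1.21 (SE 0.25) with an adjusted p of 0.0196. The other 4 were not called without that pool, with log2 fold changes of -0.99 for LOC129967496, -0.41 for LOC129960843, -0.65 for LOC129961029 and -0.45 for LOC129957168, and edgeR adjusted p from 0.0641 to 0.175.

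Without moderate replicate 4, a comparison singled out after the data had been seen, 15 members were called higher and 0 lower in cold, beside 1.54% higher and 3.04% lower among the genes then tested. The median log2 fold change of the members was then 0.23 against 0.01 over all genes, and 74.1% of the members against 50.9% of all genes were above 0. All 15 were protein-coding. LOC129981042 was at 70.3, 54.4, 37.8 and 33.7 CPM in cold, 13.8, 12.9, 10.7 and 57.5 CPM in moderate and 84.1, 94.9, 76.5 and 71.8 CPM in warm. Its log2 fold change in cold against the 3 remaining moderate pools was 1.93 (SE 0.23, adjusted p = 0.00407, edgeR). Cold spread from 33.7 to 70.3 CPM, moderate replicates 1 to 3 from 10.7 to 13.8 CPM, and moderate replicate 4 fell among the cold pools. LOC129957060 was at 18.1, 23.1, 13.7 and 16.01 CPM in cold, 5.53, 4.81, 8.49 and 28.9 CPM in moderate and 36.2, 32.1, 37.4 and 30.5 CPM in warm, and its log2 fold change was 1.45 (SE 0.20, adjusted p = 0.00586). LOC129968809, described above, gave 1.63 (SE 0.28, adjusted p = 0.0116). In CPM, the cold pools lay wholly above moderate replicates 1 to 3 in 40 members (10.4% of genes tested) and wholly below in 4 (9.03%). The cold mean was at least 1.5 times the mean of moderate replicates 1 to 3 in 52 members (26.4%, against 6.70% of all genes with a mean CPM of at least 2), and above it in 155 (78.7%, against 56.5%). With all 4 moderate pools it was above in 113 (57.4%, against 55.6%). Moderate replicate 2, the lowest cold or moderate pool in 105 members, stayed among the moderate pools here, and no run left out both. Why moderate replicate 4 differed was not tested.

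**Figure D5:**
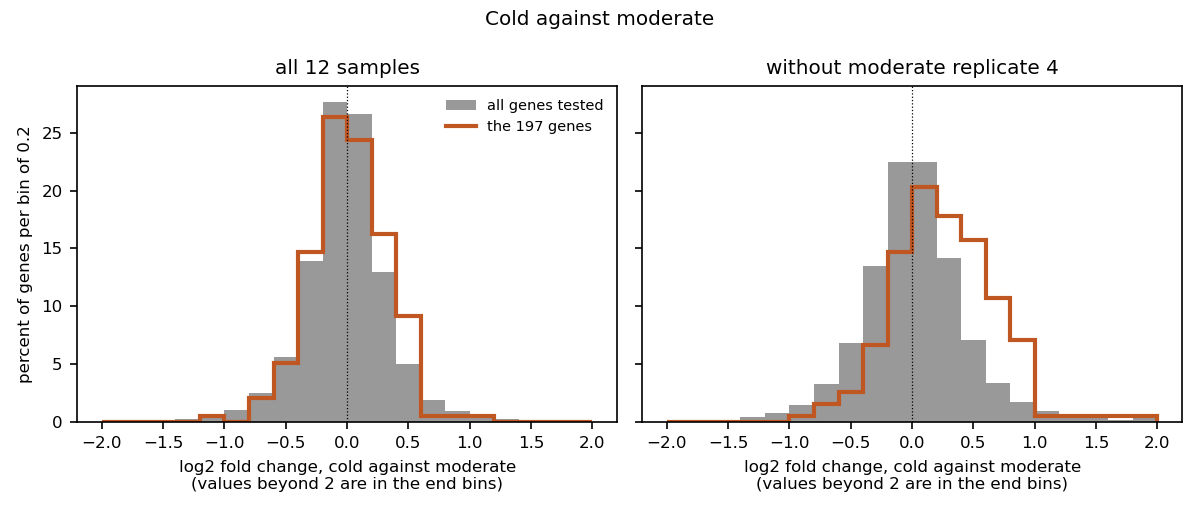
Percent of the 197 genes (line) and of all genes tested (filled) in bins of log2 fold change between cold and moderate, positive where cold is higher, with all 12 pools on the left and without moderate replicate 4 on the right. The median of the 197 was 0.02 on the left and 0.23 on the right, beside -0.01 and 0.01 for all genes tested.

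How far moderate replicate 4 reached toward the warm level varied widely from member to member. Measured as the share of the way from the mean of the other 7 cold and moderate pools to the warm mean, its position had a median of 0.483, with the middle quartiles at 0.300 and 0.616 and a range from -0.62 to 0.834. It was above 0.5 in 90 members, and below 0, the far side from warm, in 12. The rule keeps this pool below every warm pool, so high values of this measure were limited by the choice. LOC129958100 was at 39.5, 44.0, 37.3 and 34.4 CPM in cold, 37.1, 35.5, 37.0 and 73.9 CPM in moderate and 85.9, 81.6, 77.9 and 82.6 CPM in warm, and its position was 0.817. LOC129984490 stood at 18.6, 22.5, 9.70 and 17.0 CPM in cold, 12.5, 10.4, 9.39 and 30.5 CPM in moderate and 33.2, 39.5, 34.3 and 32.2 CPM in warm, with a position of 0.793. In these genes moderate replicates 1 to 3 were alike and replicate 4 lay just under the warm pools. LOC129956697 and LOC129963141 had positions of 0.834 and 0.818, and LOC129963141 was at 28.7, 29.7, 23.4 and 25.2 CPM in cold, 16.8, 9.81, 19.5 and 40.7 CPM in moderate and 41.7, 44.1, 43.3 and 50.6 CPM in warm. By contrast, LOC129967125, LOC129967415 and the snRNA LOC129959564 had positions of -0.10, -0.02 and -0.07, so in the 2 members with the largest ratio this pool was not raised.

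The size of the set depended on that pool. When it was left out of the comparison pools, 672 genes met the criteria before the limit of 200, all 197 members among them. The 198 genes then kept shared 90 with the members. Leaving out any other single pool gave 218 to 344 genes before the limit. By the same rule without the limit, 118 genes were lowest in every warm pool, 61 highest and 32 lowest in every cold pool, and 7 highest and 38 lowest in every moderate pool.

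Members close to a threshold differed little from genes just outside it. At the limit of 200, LOC129958184 was kept with a ratio of 1.578 and LOC129965928 was not with 1.577. At the gap between groups, LOC129958557 entered with its lowest warm pool at 46.64 CPM and its highest other pool at 46.55 CPM, and LOC129989206 did not with 13.43 CPM in each and a ratio of these of 0.9995. At the mean level, LOC129974907 entered at 2.07 CPM and LOC129966590 did not at 1.99 CPM. The ratio of 1.5 itself bound no member, since the smallest ratio kept was 1.58.

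For the contrasts that the choice used, the counts are given without reading anything from them. In warm against moderate, 91 of the 197 members were called higher by edgeR's quasi-likelihood test at an adjusted p under 0.05 (1.37% of all genes tested), with fitted log2 fold changes of 0.34 to 2.97 and a median of 0.96. In warm against cold, 110 were called higher (2.7% of all genes tested), with fitted log2 fold changes of 0.37 to 2.43 and a median of 0.92. Both counts turned on single pools, as did the calls over all genes. Without moderate replicate 4, 186 and 165 members were called, beside 2052 and 1117 of all 14181 genes then tested called higher in warm. Without any other single pool, 0 to 4 members were called in warm against moderate, beside 0 to 5 of all genes. For warm against cold these runs called 28 to 163 members, beside 59 to 896 of all genes.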

How the data were processed

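RNA from 12 pools of 15 whole first instar spiderlings was depleted of ribosomal RNA and made into directional libraries. Reads were mapped by the authors to the qqArgBrue1.1 genome with STAR 2.7.11a in 2-pass mode and counted per gene with featureCounts of Subread 2.0.6, and the values were deposited as raw read counts, without normalization or filter. The settings for strand and for reads with several matches are not given in the sources used here. All 12 columns were used, 0 were left out, and 2 of 37459 genes had no values. Depth was 10800714 to 16081111 counts per pool.

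CPM was the count divided by the column sum and multiplied by 1000000. Tests used edgeR 4.0.16 in R 4.3.3 (TMM, filterByExpr with a minimum count of 10, glmQLFit and glmQLFTest), with 1 model of the 3 regimes over all pools and Benjamini-Hochberg adjustment over all 14057 genes tested, which included all 197 members. A gene was called at an adjusted p under 0.05, and standard errors, derived from the F statistic, are approximate. DESeq2 1.42.0, limma voom 3.58.1, other scalings, no filter on low counts, only the regimes compared, a replicate block and leaving out each pool were alternatives, and the functions were tested on simulated data. Correlations used log2 of CPM plus 0.5.

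The rule for named members was the 12 largest ratios, the 8 highest warm levels, the 5 smallest p in cold against moderate, the 4 in which moderate replicate 4 was nearest to warm, and genes beside each threshold. Others are said to be chosen after their values were seen, as were the further members named for cold against moderate without moderate replicate 4. The members, lists and rules were chosen with earlier results of these data known. Gene names, types and positions came from the RefSeq table of the qqArgBrue1.1 assembly, in which all 197 matched. The 16 lists of product names, the lists of cell type markers and the promoter motifs prepared for this set were not used here, because they need product names or sequences.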

Additional observations from a re-analysis of the deposited data

Results flagged for a closer look

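The 93 groups of 4 pools looked at were each a named member, or the median level or summed CPM of all members, in 1 regime. Of them 9, all of named members, held a pool that stood apart from the other 3 by more than Dixon's 95% critical value. Chance flags about 1 in 20 of independent groups. These groups share the same 12 pools and the members were named by their values, so the 9 flags cannot be set against that rate. LOC129958100 and LOC129984490 had been named because moderate replicate 4 was near the warm level in them, so that this pool stands apart there restates the choice. In moderate replicate 4, LOC129960562 had 1571 CPM, against 461 to 518 CPM in the other moderate pools. The same pool had 217 CPM for LOC129969260 (95.8 to 104 CPM in the others), 73.9 CPM for LOC129958100 (35.5 to 37.1), 30.5 CPM for LOC129984490 (9.39 to 12.5), 9.31 CPM for LOC129957161 (2.96 to 3.76) and 5.67 CPM for the snRNA LOC129957802 (2.22 to 2.62). In the other groups, warm replicate 4 had 27.1 CPM for LOC129957161 (15.5 to 17.1 CPM in the other warm pools), warm replicate 1 had 8.80 CPM for LOC129967496 (4.69 to 5.37), and cold replicate 4 had 344 CPM for the snRNA LOC129959564 (227 to 246 CPM in the other cold pools).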

How the results depend on the processing

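The log2 fold changes of the 5 members with the smallest p in cold against moderate kept their sign in each alternative run. They were picked by their p in that contrast, so a kept sign was largely set by the choice. The number of members was 83 with a minimum ratio of 2 and 196 to 198 when a pool was left out, of which 90 to 186 were shared with the members. The limit of 200 set the numbers from 196 to 198, and 218 to 672 genes met the criteria before it. In cold against moderate, where 0 members were called, DESeq2 called 2 and limma voom 14, beside 188 and 804 of all genes. Leaving out single pools gave 0 to 15, with 15 without moderate replicate 4, beside 0 to 650 of all genes. The median log2 fold change there, 0.02 over all pools, was -0.09 to 0.23 when a pool was left out, lowest without moderate replicate 2 and highest without moderate replicate 4, so its sign was not fixed. In warm against moderate, 91 members were called, beside 192 of all genes called higher in warm. DESeq2 called 176 (880 of all genes), limma voom 192 (2493), upper quartile scaling 27 (46) and edgeR on only those regimes 0 (0). Leaving out pools gave 0 to 186 (0 to 2052), the highest without moderate replicate 4. In warm against cold, 110 members were called, beside 380 of all genes called higher in warm. With limma voom 193 (1813) were called, and with edgeR on only those regimes 190 (1586). Leaving out pools gave 28 to 165 (59 to 1117). The member counts thus moved with the calls over all genes. The median position of moderate replicate 4 was 0.759 for members chosen without that pool, an alternative added after the data had been seen, and 0.475 to 0.491 when a warm pool was left out. Causes of these changes were not tested.

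The replicate number was not a stated pairing. To look for one, the log2 CPM of each pool was taken as its difference from the mean of its regime. These differences correlated between -0.07 and 0.12 for same-numbered pools of different regimes. For differently numbered pools the range was -0.14 to 0.14. With the replicate number as a block, 0 members and 0 of all genes were called in cold against moderate (median log2 fold change of the members 0.05). In warm against moderate 7 members were called and between warm and cold 79, beside 9 and 249 of all genes called higher in warm. Limits were the 4 pools per regime, the 1 cabinet model for cold, and moderate replicate 4, on which the size of the set rests. The median log2 fold change in cold against moderate turned on moderate replicates 2 and 4, at -0.09 without replicate 2 and 0.23 without replicate 4.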
